A study of Mus musculus with 55 samples.

Results

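The CD3 chains are 4 genes, CD3D, CD3E, CD3G and CD247, taken by their symbols from the 15729 symbols that every expression file of this mouse bone marrow study lists. The set was chosen by the measured levels of CD3D and CD3E in granulocytes, where CD3D did not follow CD3E. The levels of both genes in granulocytes, their differences between stages there and their gap between granulocytes and T cells are therefore described with no test. The study sorted granulocytes, CD4+ T helper cells, CD8+ T cytotoxic cells and CD4+CD25+ T regulatory cells (Treg) from the marrow of mice with breast cancer bone metastasis and from mice without it, and made MARS-seq libraries, a 3′ tag method, from them. There were 55 libraries in 16 groups. Normal marrow gave 4 libraries of each population. The early metastatic stage gave 4 granulocyte, 4 CD4, 4 CD8 and 3 Treg libraries. Sample titles call these libraries Premet, while the treatment label, followed here, names an early metastatic stage. At the late metastatic stage 2 places of the same mice were sampled, the peripheral marrow (4 granulocyte, 4 CD4, 2 CD8 and 3 Treg libraries) and the metastatic core in the bone (3 granulocyte, 3 CD4, 2 CD8 and 3 Treg libraries). No group is labelled as having been given a drug or a gene change. The labels used here name neither the mouse strain, the tumour line nor the age, and they do not say whether the libraries of a group came from separate animals, so each p-value measures the spread between these libraries.

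CD3 delta, epsilon and gamma (CD3D, CD3E, CD3G) and the zeta chain (CD247) are the invariant signalling chains of the T cell receptor. Delta and gamma each pair with epsilon, zeta pairs with itself, and the receptor reaches the surface of a T cell only as the whole assembly. Each chain carries immunoreceptor tyrosine-based activation motifs (ITAMs) in its tail, which the kinase LCK phosphorylates and to which the kinase ZAP70 binds. Granulocytes signal through other ITAM adaptors, among them the Fc receptor gamma chain (FCER1G) and DAP12 (TYROBP). In bulk libraries of sorted cells, fewer cells of a type and less RNA per cell cannot be told apart.

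The files carry human identifiers for mouse genes: CD3D is ENSG00000167286, CD3E ENSG00000198851, CD3G ENSG00000160654 and CD247 ENSG00000198821. On the mouse genome (GRCm38) Cd3g (chr9:44969572-44980431, minus strand), Cd3d (chr9:44981786-44987339, plus strand) and Cd3e (chr9:44998740-45009627, minus strand) form a cluster. Cd3g and Cd3d are divergent, with 1355 bases between their starts, while the 3′ ends of Cd3d and Cd3e lie 11401 bases apart. Neither Cd3d nor Cd3g overlaps another annotated gene, and Cd3e overlaps 2 non-coding genes, Gm48719 on the other strand and Gm48720. Cd247 (chr1:165788681-165877277, plus strand) lies on another chromosome and overlaps 6 annotated genes. One of these, Pou2f1, lies on the minus strand, shares 12124 bases with it and is listed in the files, so CD247 is reported as uncertain to that extent because the sources used here do not say whether counting used the strand.

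The promoters of the 3 clustered genes are shown because the genes are neighbours and 1 of them departed from the other 2 in granulocytes. Each is the RefSeq window (GRCm38.p6) from 250 bases before the start to 50 after it, read 5′ to 3′ on the gene's own strand, at chr9:44981536-44981835 for Cd3d, chr9:44980382-44980681 for Cd3g and chr9:45009562-45009861 for Cd3e. Capitals mark GGAA, the core of an ETS factor site, on either strand.
Cd3d: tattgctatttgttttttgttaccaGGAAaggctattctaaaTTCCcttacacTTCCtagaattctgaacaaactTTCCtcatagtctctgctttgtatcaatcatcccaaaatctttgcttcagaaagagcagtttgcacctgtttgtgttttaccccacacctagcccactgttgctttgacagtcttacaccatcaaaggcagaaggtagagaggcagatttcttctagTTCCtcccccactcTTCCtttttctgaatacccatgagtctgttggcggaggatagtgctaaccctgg
Cd3g: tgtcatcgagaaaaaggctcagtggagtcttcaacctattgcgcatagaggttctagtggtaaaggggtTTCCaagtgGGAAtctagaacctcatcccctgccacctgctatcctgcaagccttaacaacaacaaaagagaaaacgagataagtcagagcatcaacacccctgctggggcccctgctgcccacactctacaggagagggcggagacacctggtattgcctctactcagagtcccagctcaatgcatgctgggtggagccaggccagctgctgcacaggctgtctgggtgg
Cd3e: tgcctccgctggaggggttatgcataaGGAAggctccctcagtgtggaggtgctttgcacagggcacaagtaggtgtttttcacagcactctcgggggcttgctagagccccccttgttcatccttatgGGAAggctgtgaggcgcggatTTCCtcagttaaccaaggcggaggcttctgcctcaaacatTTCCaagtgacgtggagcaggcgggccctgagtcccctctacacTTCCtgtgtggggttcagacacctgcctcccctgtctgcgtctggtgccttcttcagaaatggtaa
The Cd3d window held 6 GGAA matches, that of Cd3e 5 and that of Cd3g 2. Of all 32851 windows of this length, 96% held at least 1. The RUNX core TGTGGT and the C/EBP motif TTGCNNAA, searched on both strands like the others, were found in none of the 3 windows, and they were present in 16.8% and 10.8% of all windows. GATA was found 2 times in the Cd3d window, 2 times in that of Cd3g and not in that of Cd3e (57.9% of all windows), and the E box CANNTG 1 time, 4 times and 2 times (72.3%). A match describes letters and is no evidence of binding.

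Depth ran from 357058 to 1633022 reads a library in granulocytes and from 43224 to 1148806 in the T cell populations, and levels are given as CPM, the reads of a gene scaled to a common library total, mean ± SD. Neutrophil markers (10 genes, among them S100A8) summed to between 128520 and 381789 CPM in the granulocyte libraries. The Treg libraries went against their label in normal marrow: FOXP3, the defining factor of regulatory T cells, stood at 4.22 ± 3.67 CPM there against 31.7 ± 6.21 in CD4 libraries (n = 4 each), and 8 macrophage markers summed to between 25089 and 28388 CPM against 1055 to 1846. All 4 regulatory T cell markers, FOXP3 among them, summed to 31.4 to 42.1 CPM in normal Treg and 45.7 to 62.7 in normal CD4 libraries. In the core the same sum was 178 to 333 CPM in Treg and 211 to 340 in CD4 libraries. The name Treg is therefore used for the sort and not as an identity. Transcripts of 6 lung genes were found in every library (at least 20.3 CPM summed), and in 24 of the 55 libraries, spread over 14 of the 16 groups, they summed to over 100 on the deposited scale. The other 31 libraries are called low in lung transcripts, and results are given below with all libraries and in these alone, where the groups keep any. Both core CD8 libraries were above the limit, so no such value exists for that group. Where a group keeps 1 library, the fit takes its spread from the other groups.

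CD3D was abundant in granulocytes. The 4 normal libraries held 506, 600, 494 and 548 CPM (537 ± 47.9), from 292 to 676 reads each. The 4 early libraries held 123, 177, 121 and 200 CPM, the 4 peripheral ones 193, 149, 86.6 and 133, and the 3 core ones 163, 158 and 67.2. Every normal library lay above all 11 others, and the early, peripheral and core libraries overlapped. Ordered by mean, CD3D was highest in CD8 cells of normal marrow (1115 ± 148 CPM), and granulocytes of normal marrow stood at rank 6 of 16 groups, between core Treg libraries (556 ± 122) and CD8 cells of the early stage (469 ± 36.4), whose ranges both overlapped with theirs. The early (155 ± 39.4), peripheral (140 ± 43.7) and core (129 ± 53.8) granulocytes took the last 3 ranks, overlapping in range with Treg libraries, the lowest of which held 28.3 CPM. Of the 15 pairs of neighbours in this order, the ranges of only 1 were apart, core CD4 cells and core Treg libraries.

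**Figure D1:**
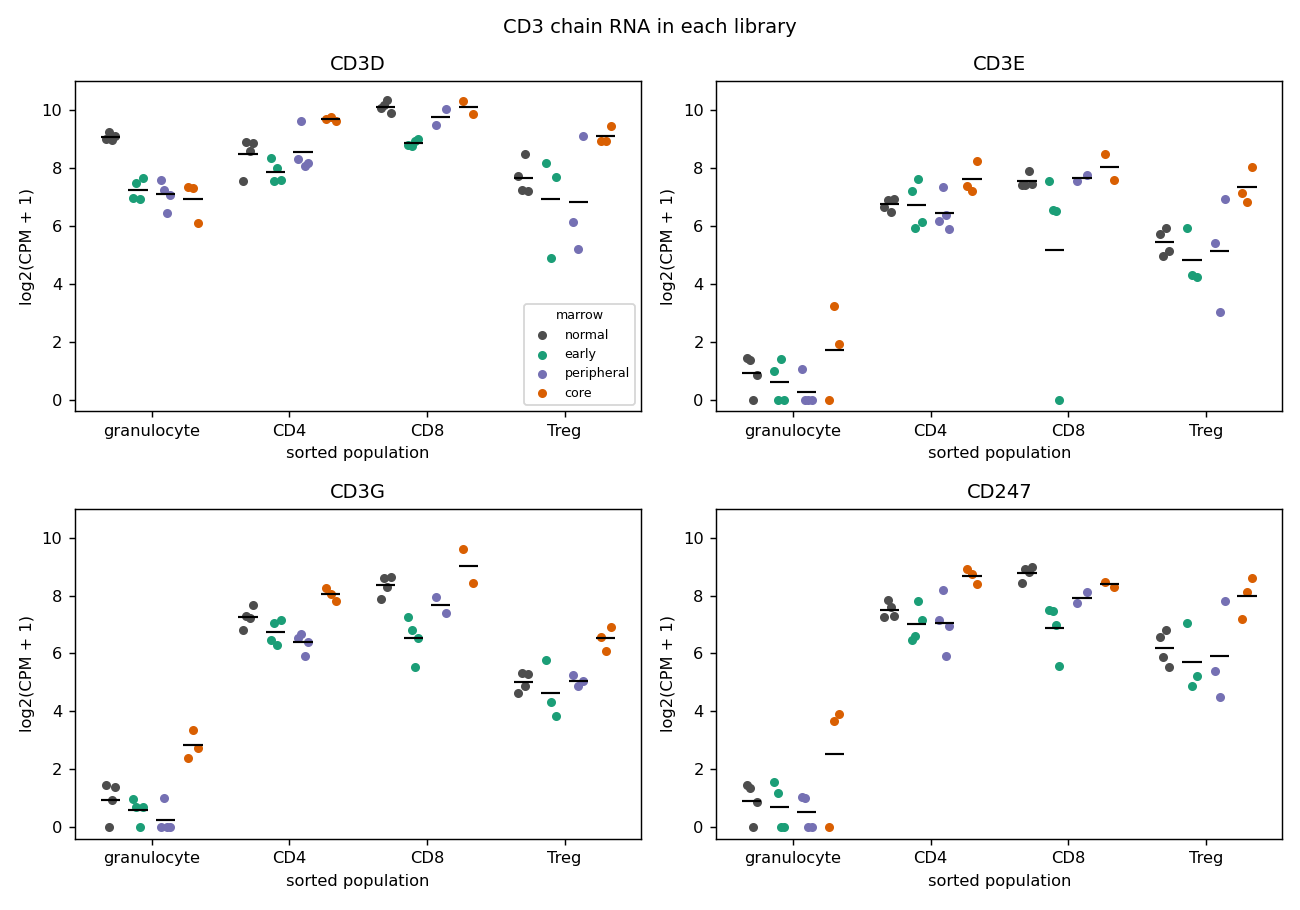
Level of each CD3 chain in every library, as log2(CPM + 1) on the vertical axis, by sorted population on the horizontal axis. Points are libraries coloured by marrow, bars are the group means of the log values. Granulocytes of normal marrow carried CD3D at T cell levels (537 CPM). Those of the other stages had means of 129 to 155 CPM, below the mean of every T cell group. CD3E, CD3G and CD247 stayed below 15 CPM in all 15 granulocyte libraries.

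The other 3 chains were near the detection limit in granulocytes. CD3E had 17 reads over the 15 granulocyte libraries and was at 0 in 7 of them, CD3G had 24 reads and was at 0 in 5, and CD247 had 28 reads and was at 0 in 6. CD3D had 3649 reads in the same libraries. In normal granulocytes CD3E stood at 1.73, 1.55, 0 and 0.811 CPM, and CD3G at 1.73, 0, 0.915 and 1.62. CD247 there stood at 1.73, 1.55, 0 and 0.811. At most 2 reads a library lay behind these values. For CD3E and CD247 the order of groups placed all 4 granulocyte groups below all 12 T cell groups, with the lowest T cell group (early Treg libraries, 32.2 ± 23.8 CPM for CD3E) apart in range from the highest granulocyte group (core, 3.74 ± 4.28). A single Treg library of the peripheral marrow, at 7.14 CPM of CD3E, lay below the highest core granulocyte library, at 8.41. CD3G was split likewise, between early Treg libraries (28.7 ± 21.9) and core granulocytes (6.38 ± 2.58).

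In the metastatic core the granulocyte libraries held more of these 3 chains. CD3G stood at 4.28, 9.25 and 5.60 CPM in the 3 core libraries and at no more than 1.73 in the other 12 granulocyte libraries, so that the core was apart from all of them. Of the 8602 genes with at least 10 reads in granulocytes, 1.15% had every core library above every other granulocyte library, a share from which nothing is read, because CD3G reached that minimum only through its core reads. CD247 stood at 0, 11.8 and 14.0 CPM and CD3E at 0, 8.41 and 2.80 in the core, both overlapping with the other stages through the library at 0. That library, the first, was the only core granulocyte library low in lung transcripts, and it held 4.28 CPM of CD3G. With reads pooled, CD3G had 16 reads of 2246804 in the core against 4 of 3550156 in normal marrow, a ratio of 6.32 (exact 95% interval 2.04 to 26.0, counting error only), and against 1 of 4737655 in the peripheral marrow, a ratio of 33.7 (5.24 to 1415). All 3 genes were under the minimum value of the test. With that minimum dropped, 0.707% of 11598 genes were called between core and peripheral marrow and 0.69% were called higher. CD3G was among them (log2 fold change 0.79 ± 0.12 SE, limma adjusted p = 0.0013), while CD247 (0.83 ± 0.24, adjusted p = 0.18) and CD3E (0.42 ± 0.16, adjusted p = 0.37, limma) were not. For CD3D the pooled ratio of core to peripheral marrow was 1.10 (0.958 to 1.26). LCK moved beside the 3 chains, with 35 reads in the core and 14 in the peripheral marrow (ratio 5.27, 2.76 to 10.6), and the summed T cell markers were 41.4 to 95.9 CPM in the core against 9.22 to 39.8 in the peripheral marrow. Their part in the result was not tested.

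Within a library, the ratio of 2 genes does not depend on scaling, and comparing it between libraries does not depend on gene length. In the granulocytes of normal marrow CD3D had 292, 388 and 676 reads where CD3E had 1 read, and 540 reads where CD3E had none. With reads pooled over libraries CD3D had 215 reads for each read of CD3E in granulocytes, against 4.31 in CD4 libraries, 4.81 in CD8 libraries and 4.00 in Treg libraries. By stage the pooled value in granulocytes ran from 29.6 in the core to 632 in normal marrow. Core library 2 alone held 10 of the 17 CD3E reads. On the log2 scale, with 0.5 read added to both counts, it ran from 4.03 to 10.1 in the 15 granulocyte libraries and from 0.37 to 5.49 in the 40 T cell libraries. The T cell library at 5.49 was the CD8 early library in which CD3E had 0 reads and CD3D 22, and no other T cell library was above 3.37. The granulocyte libraries at the low end were core libraries 2 and 3, with 188 reads of CD3D to 10 of CD3E and 24 to 1. For the other 2 ratios, pooled CD3G to CD3E was 1.41 in granulocytes against 1.27 in CD4, 1.76 in CD8 and 0.665 in Treg libraries. Pooled CD247 to CD3E was 1.65 against 1.97, 1.66 and 1.62. Both overlapped between granulocytes and T cells on the log2 scale. In granulocytes they rest on 24 reads of CD3G, 28 of CD247 and 17 of CD3E, of which core library 2 held 11, 14 and 10. With so few reads, nothing is read from the overlap.

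**Figure D2:**
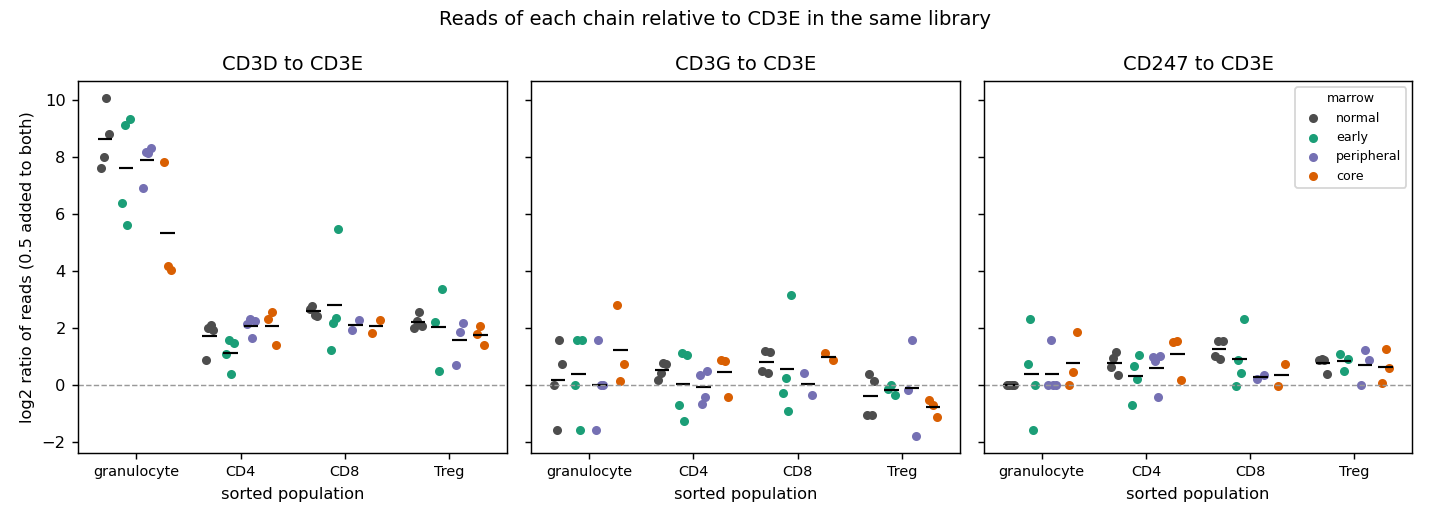
Log2 ratio of the reads of CD3D, CD3G and CD247 to those of CD3E in the same library, with 0.5 read added to both counts, by sorted population. Points are libraries coloured by marrow and bars are group means. The ratio of CD3D to CD3E lay between 4.03 and 10.1 in granulocytes, and the ratios of CD3G and CD247 to CD3E overlapped between all 4 populations.

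CD3D was high in granulocytes where 15 T cell markers were low. The markers, among them LCK, LAT and CD2, summed to 17.4 to 44.8 CPM in the 4 normal granulocyte libraries and to 2335 to 2553 in the 4 normal CD4 libraries. The defining markers were near 0 there: LCK stood at 3.61 ± 3.77 CPM, LAT at 3.52 ± 1.64 and CD2 at 4.25 ± 3.41, against 624 ± 63.9, 357 ± 33.3 and 454 ± 85.4 in CD4 cells (n = 4 each). CD3D divided by the summed markers of the same library was 20.9 ± 6.27 in normal granulocytes and 0.153 ± 0.0518 in normal CD4 cells. For CD3E the same quotient was 0.0336 ± 0.0272 and 0.0437 ± 0.00634, and for CD3G 0.0465 ± 0.0317 and 0.0635 ± 0.0147, and these ranges overlapped. The 4 early T lineage markers were low as well, with a sum of no more than 2.43 CPM in any granulocyte library. PTCRA and RAG2 of that list were at 0 in every granulocyte library, while RAG1 and DNTT had reads in normal granulocytes. RAG2 was at 0 in all T cell groups too, and PTCRA in several of them. The 6 natural killer cell markers summed to 4335 to 8111 CPM in granulocytes, a list that includes TYROBP, which granulocytes also use and which alone held 4302 to 8106 CPM. NCR1 and KLRB1 of that list were at 0 in all granulocyte groups, but KLRB1 was at 0 in all T cell groups too, and NCR1 in those of the late stage. The 3 markers of gamma delta T cells summed to 31.6 to 46.4 CPM in normal, 5.92 to 19.5 in early, 6.14 to 19.4 in peripheral and 9.25 to 11.4 CPM in core granulocytes, so that normal libraries were above the others, as they were for CD3D. In normal CD4 and CD8 cells the same sum was 24.4 to 72.9 and 24.7 to 36.6 CPM. CD163L1 of that list was at 0 in all granulocyte groups and in normal CD8 cells. The 6 B cell markers also moved that way, with 25.6 to 45.4 CPM in normal and no more than 13.5 in the other granulocytes. The part of these cells in the level of CD3D was not tested.

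**Figure D3:**
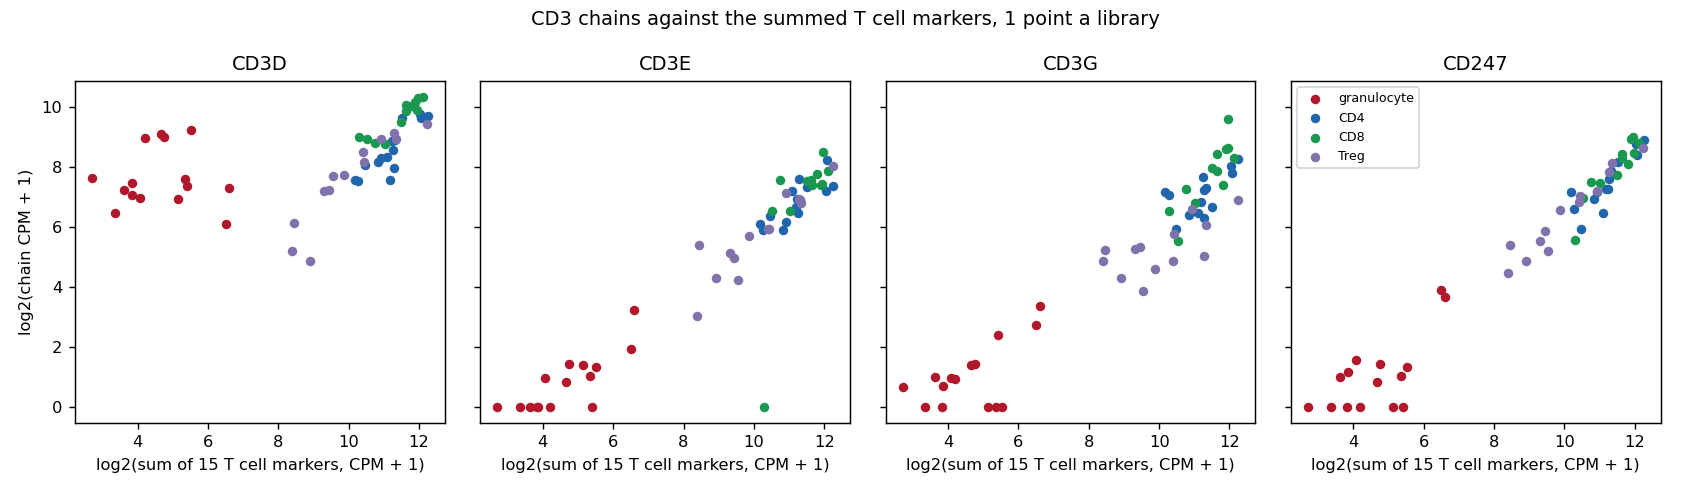
Level of each chain against the summed level of 15 T cell markers, both as log2 of CPM + 1, with 1 point for each of the 55 libraries coloured by population. In CD3E, CD3G and CD247 the granulocytes sit at the low end of both axes, and in CD3D they sit high on the vertical axis with marker sums of no more than 95.9 CPM.

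The genes beside CD3D were not high in granulocytes. In normal marrow the neighbours on one side, CD3G, UBE4A (a ubiquitin chain elongation factor) and KMT2A (a histone methyltransferase), stood at 1.07 ± 0.799, 1.07 ± 1.26 and 6.21 ± 2.40 CPM. Those on the other side, CD3E, MPZL2 and MPZL3, stood at 1.02 ± 0.789, 0 and 0.660 ± 0.868 CPM (n = 4). In normal CD4 libraries UBE4A and KMT2A stood at 2.46 ± 1.83 and 16.5 ± 8.23 CPM. Beside CD247, RCSD1 stood at 366 ± 61.3, CREG1 at 87.2 ± 31.9 and POU2F1, which overlaps it, at 3.09 ± 1.23 CPM in normal granulocytes.

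**Figure D4:**
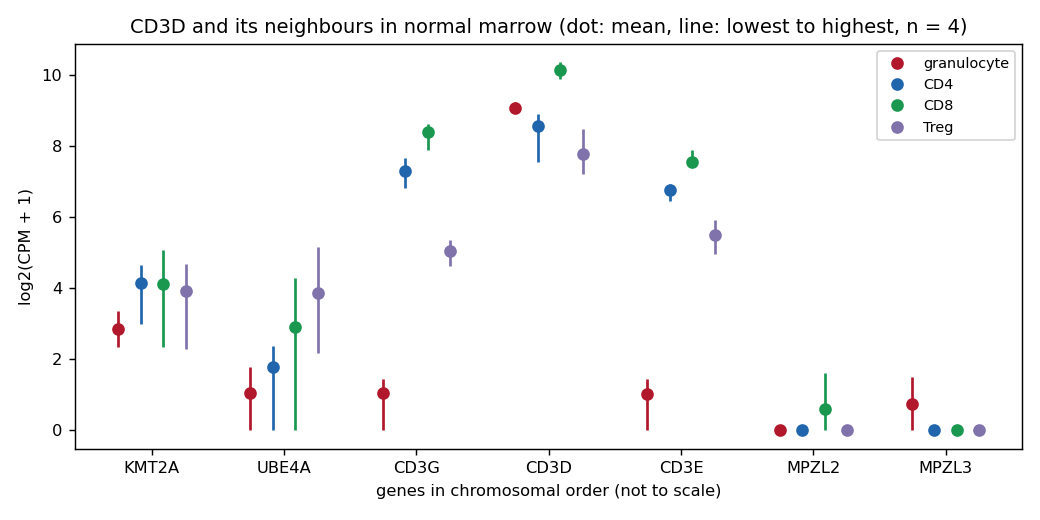
Level of CD3D and of the 3 nearest listed genes on each side in normal marrow, as log2(CPM + 1), for 4 populations. Dots are the log of the mean of 4 libraries and lines run from the lowest to the highest library. In granulocytes CD3D alone of these 7 genes had a mean above 10 CPM. In the T cell populations CD3G and CD3E were above it too, as was KMT2A in CD4 libraries.

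Between stages, CD3D was lower in the granulocytes of all 3 metastatic groups than in those of normal marrow. The gene was chosen with these values known, so the fitted differences are given as a description, with no test. On the log2 scale the difference from normal marrow was -1.72 ± 0.25 SE at the early stage, the normal mean being 3.46 times the early one. It was -2.15 ± 0.25 in the peripheral marrow and -2.04 ± 0.27 in the core, and core minus peripheral marrow was 0.11 ± 0.27. The fit called 4.78% (early), 8.14% (peripheral) and 12.6% (core) of 3808 genes against normal marrow, with 1.73%, 4.31% and 6.49% lower, and 1.68% between core and peripheral marrow. Of the same genes 2.36% had all normal libraries above all others, like CD3D, and nothing is read from these shares. In the libraries low in lung transcripts the core difference was -1.39, with 1 core library. Set against CD4 cells, core minus normal marrow was lower in granulocytes by -3.34 ± 0.71, and by -2.12 in libraries low in lung transcripts, where 1 granulocyte and 1 CD4 core library remained. The same difference was -2.25 ± 0.66 for the peripheral marrow and -1.15 ± 0.66 for the early stage. The fit called 1.75% (core, 0.816% lower), 0.385% (peripheral) and 0.339% (early) of 6498 genes for these differences, from which nothing is read either.

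The genes whose pattern over the 15 granulocyte libraries was most like that of CD3D, by Pearson's r on log2(value + 4) among 3808 genes, were TNFSF13B (the B cell survival factor BAFF, r = 0.937), CXCR4 (the receptor that retains neutrophils in marrow, 0.937), CAMP (the cathelicidin of specific granules, 0.934), VNN3 (a vanin family member, 0.931) and LYL1 (a haematopoietic transcription factor, 0.929). All 15 points share the stage differences and the scaling, so these values describe likeness only. CAMP had a mean of 50221 ± 5087 CPM in normal granulocytes and 15394 ± 4387 in the core. These 5 were picked by their likeness to CD3D and were given no test. Of the other ITAM adaptors, FCER1G stood at 1726 ± 214 CPM in normal and 1246 ± 33.2 in core granulocytes, and TYROBP at 6803 ± 1090 and 5411 ± 992. Both means were lower in the core, and neither gene passed the test in any stage comparison (limma, adjusted p from 0.060 to 0.98). The adaptors CD79A and CD79B are among the B cell markers, which summed to 25.6 to 45.4 CPM in normal and 0 to 10.9 in core granulocytes. Of the pathway list of 30 signalling genes, 5 were high enough to test in granulocytes and 0 passed in any of the 4 comparisons.

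In CD4 cells the chains were higher in the core than in the peripheral marrow of late-stage mice. CD3G stood at 308, 263 and 224 CPM in the 3 core libraries and at 91.7, 102, 59.7 and 84.1 in the 4 peripheral ones, so the groups were apart. It rose by 1.59 ± 0.28 (limma, adjusted p = 0.0048). CD247 stood at 478, 432 and 337 CPM against 142, 289, 59.7 and 122, also apart, and rose by 1.60 ± 0.39 (limma, adjusted p = 0.033). CD3D (1.2 ± 0.36, adjusted p = 0.11, limma) and CD3E (1.11 ± 0.37, adjusted p = 0.16, limma) did not pass. CD3D held 830, 862 and 792 CPM in the core and 317, 789, 269 and 286 in the peripheral marrow, and leaving out peripheral library 2, the one at 789, brought both CD3D (1.61, adjusted p = 0.0027, limma) and CD3E (1.42, adjusted p = 0.021, limma) past the threshold. So 2 of 4 chains rose, where 2.01% of 4534 genes were called and 1.59% were called higher. The call for CD247 was lost without peripheral library 1, 3 or 4 or without core library 1 or 2 (1.27 to 1.61, adjusted p up to 0.17, limma). With the file-name number as a block, taken as the mouse although no label says so, 1 of the 4 passed, CD3G (1.45, adjusted p = 0.013), and CD247 did not (1.27, adjusted p = 0.058, limma). In libraries low in lung transcripts, which leave 1 core library, 0 of 4 passed, with CD3G at 1.28. Of the pathway genes 5 of 16 tested rose and 0 fell, with a median log2 fold change of 1.13 against 0.01 over all genes. Among them CD5, an inhibitory coreceptor, rose by 1.26 ± 0.27, CD2, an adhesion receptor, by 1.61 ± 0.36 and CD6 by 1.22 ± 0.30 (limma, adjusted p from 0.012 to 0.035). The 15 T cell markers summed to 4220 to 4891 CPM in the core and 1418 to 2923 in the peripheral marrow. Divided by that sum, CD3G was 0.0592 ± 0.00604 and 0.0424 ± 0.00557, and CD247 0.0928 ± 0.0127 and 0.0700 ± 0.0232. For CD3G these quotients stayed apart in range, and for CD247 they overlapped. The share of all genes apart in range was not counted, so nothing is read from groups being apart here. The part of T cell content in these differences was not tested.

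Against normal marrow, 1 of 4 chains was called in the CD4 cells of the core (3.79% of genes called, 2.01% higher): CD3D rose by 1.3 ± 0.36 (limma, adjusted p = 0.045), from 187, 477, 379 and 464 CPM to 830, 862 and 792, with the groups apart. This call was lost when any 1 of 12 of the 15 CD4 libraries was left out, each normal and each core library among them, with values from 1.02 to 1.43 (adjusted p up to 0.20). It was also lost in the libraries low in lung transcripts (0.73, adjusted p = 1.00, limma). The 15 T cell markers summed to 2335 to 2553 CPM in normal and 4220 to 4891 in core CD4 libraries, and 3 plasmacytoid dendritic cell markers to 3436 to 4495 and 194 to 1066 CPM. Their part in the result was not tested. CD247 (1.23 ± 0.39, adjusted p = 0.077), CD3E (0.90 ± 0.37, adjusted p = 0.21) and CD3G (0.84 ± 0.28, adjusted p = 0.10, limma) were not called. In CD4 cells of the early stage and of the peripheral marrow 0 of 4 chains passed against normal marrow in limma, where 0% of genes were called in either comparison. At an unadjusted p under 0.05 there was 1 chain, CD3G in the peripheral marrow (-0.74 ± 0.26, adjusted p = 0.40), and edgeR called 0 of the 4. The share of all genes at that threshold is not given, so nothing is read from this count.

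In CD8 cells the chains were lower at the early stage than in normal marrow. CD247 stood at 343, 489, 444 and 506 CPM in normal marrow and at 180, 175, 125 and 46.3 at the early stage, and fell by 1.94 ± 0.32 (limma, adjusted p = 0.0036). CD3G stood at 233, 388, 314 and 394 against 153, 111, 45.6 and 92.5 CPM and fell by 1.83 ± 0.31 (limma, adjusted p = 0.0042). CD3D stood at 1076, 1140, 1301 and 944 against 444, 433, 490 and 509 CPM and fell by 1.39 ± 0.24 (limma, adjusted p = 0.0042). All 3 were apart between the groups, but the share of all genes apart in this way was not counted, so nothing is read from that. CD3E overlapped, at 168, 167, 235 and 174 against 187, 92.1, 91.2 and 0 CPM, and did not pass (-1.55 ± 0.63, adjusted p = 0.18, limma). So 3 of 4 chains fell, where 4.85% of 4891 genes were called and 3.52% were called lower. The early CD8 libraries were shallow: the one with no CD3E read had 22 reads of CD3D. The 3 calls held when any 1 library was left out and were lost in libraries low in lung transcripts, with 2 normal and 4 early libraries, where values were -1.78 for CD247, -1.58 for CD3G and -1.49 for CD3D (adjusted p from 0.18 to 0.23, limma).

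Other T cell genes fell in the same libraries. Of the pathway list 7 of 20 tested fell and 0 rose, with a median of -0.87 against -0.10 over all genes. ZAP70 fell by 1.77 ± 0.26, CD2 by 1.44 ± 0.25, LCK by 1.41 ± 0.28 and LAT, the adaptor that ZAP70 phosphorylates, by 1.45 ± 0.30 (limma, adjusted p from 0.0012 to 0.010). The 15 T cell markers summed to 3205 to 4442 CPM in normal and 1249 to 2081 in early CD8 libraries. Neutrophil markers summed to 3375 to 19442 and to 17755 to 113834 CPM, and both myeloid adaptors rose, TYROBP by 1.60 ± 0.40 (adjusted p = 0.032) and FCER1G by 1.47 ± 0.41 (adjusted p = 0.048, limma). The part of these cells in the result was not tested. Divided by the summed T cell markers, CD3D was 0.291 ± 0.0401 in normal and 0.301 ± 0.0875 in early CD8 cells, with overlap, as were CD3G (0.0861 ± 0.0167 and 0.0616 ± 0.025) and CD247 (0.116 ± 0.0143 and 0.0777 ± 0.0287). The early change did not differ by test from that of CD4 cells for any chain (interaction for CD3G -1.40 ± 0.39, adjusted p = 0.089, and for CD247 -1.52 ± 0.57, adjusted p = 0.23, limma, 0.0616% of genes called).

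In the other 3 CD8 comparisons 0 of 4 chains passed (0% of genes called for the peripheral marrow against normal, 1.27% for the core against the peripheral marrow and 1.19% for the core against normal marrow). At an unadjusted p under 0.05 there was 1 chain in each of the first 2, CD247 (-0.85 ± 0.39, adjusted p = 1.00, limma) and CD3G, and 0 in the last. Nothing is read from these counts, because the share of all genes at that threshold is not given. CD3G held 774 and 347 CPM in the 2 core libraries and 248 and 168 in the 2 peripheral ones, apart in range, with a difference of 1.41 ± 0.44 (adjusted p = 0.12, limma). Count models called it: edgeR gave 1.57 (adjusted p = 0.047) and DESeq2 1.60 (adjusted p = 0.028). The lung genes summed to 3156 to 6747 CPM in the core and 145 to 180 in the peripheral libraries, so the place sampled and the lung transcripts cannot be told apart there.

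**Figure D5:**
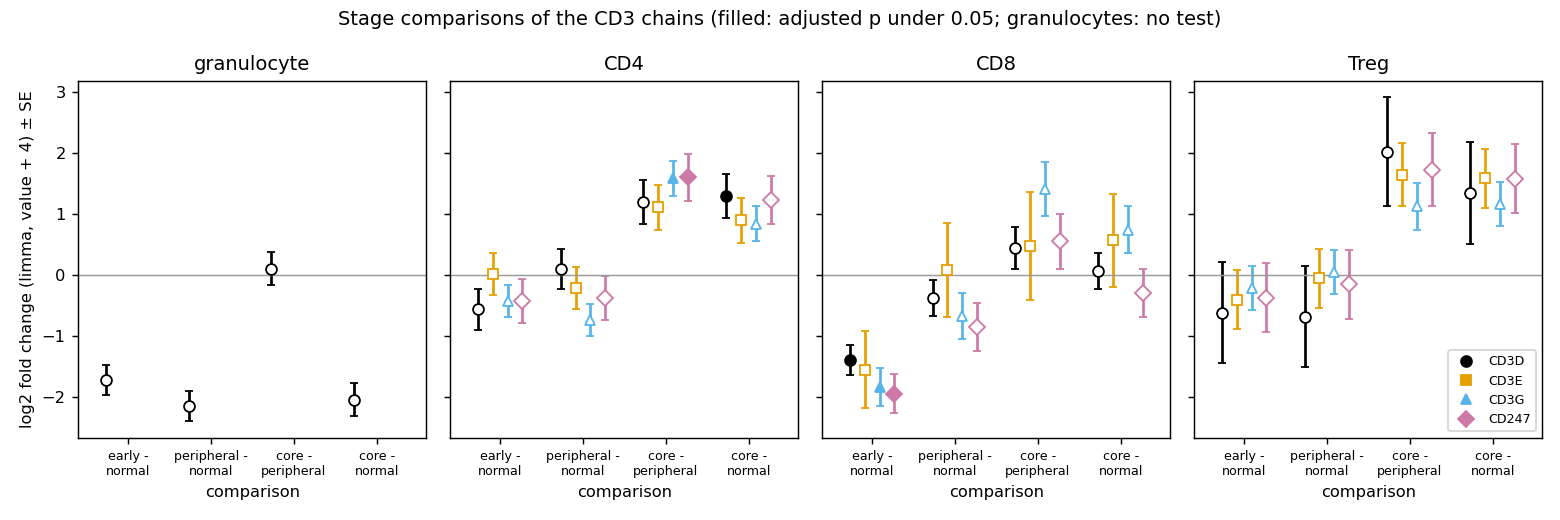
Log2 fold change of each chain ± SE in 4 stage comparisons (horizontal axis) in each population, from limma on log2(value + 4). Filled symbols passed an adjusted p of 0.05. In granulocytes only CD3D was high enough to fit and is shown open, as a description with no test (-1.72, -2.15, 0.11 and -2.04). The fills mark CD3G and CD247 in core against peripheral CD4 cells, CD3D in core against normal CD4 cells and 3 chains in early CD8 cells.

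In Treg libraries 0 of 4 chains passed in any stage comparison, where 0.167% (early against normal), 2.52% (peripheral against normal), 1.52% (core against peripheral) and 6.24% (core against normal) of 4793 genes were called. The mean was highest in the core for every chain. CD3E held 139, 111 and 262 CPM in the core, 41.4, 7.14 and 121 in the peripheral marrow and 51.1, 30.2, 59.6 and 34.0 in normal marrow. Core and normal libraries were apart, and core and peripheral ones overlapped through peripheral library 3. The difference was 1.59 ± 0.49 against normal (adjusted p = 0.057) and 1.65 ± 0.52 against the peripheral marrow (adjusted p = 0.12, limma). CD3G, at 95.1, 66.6 and 119 CPM in the core and 23.6, 39.5, 28.0 and 37.8 in normal marrow, was apart as well and stood at 1.17 ± 0.36 (adjusted p = 0.061, limma). At an unadjusted p under 0.05 there were 3 chains for the core against normal marrow and 4 for the core against the peripheral marrow, and edgeR called 2 chains for the former, CD3E (1.98, adjusted p = 0.029) and CD3G (1.54, adjusted p = 0.036). Shares of all genes at that threshold and in the alternative fits of this paragraph are not given, so nothing is read from these counts. In the early and peripheral comparisons with normal marrow no chain had an unadjusted p under 0.05, and edgeR called 0. With the file-name number as a block 2 chains passed between core and peripheral marrow, CD3E (1.65, adjusted p = 0.026) and CD247 (1.73, adjusted p = 0.049, limma). Peripheral library 3 held 555 CPM of CD3D where the other 2 held 69 and 35.7, and 2485 CPM of summed T cell markers where they held 350 and 336. Without it 3 chains passed between core and peripheral marrow: CD3D (3.03, adjusted p = 0.025), CD247 (2.50, adjusted p = 0.0045) and CD3E (2.27, adjusted p = 0.0075, limma). Against normal marrow CD3E then passed as well (1.59, adjusted p = 0.02, limma), as it did without peripheral library 2 (adjusted p = 0.022), and CD247 passed without library 3 (1.58, adjusted p = 0.023). In libraries low in lung transcripts CD3E (2.34, adjusted p = 0.016) and CD247 (2.85, adjusted p = 0.00043, limma) passed between core and peripheral marrow, with 2 libraries each. Against normal marrow, with 1 normal library left, 0 of 4 passed there (CD3E 1.29, adjusted p = 0.75, and CD3G 1.26, adjusted p = 0.77, limma). The summed T cell markers were 1946 to 4830 CPM in the core and 635 to 1353 in normal marrow, and macrophage markers 893 to 9314 and 25089 to 28388 CPM, and their part in these values was not tested.

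Between T cell populations of normal marrow all chains were highest in CD8 cells. Against CD4 cells, 4 of 4 chains were higher (11% of 4076 genes called, 4.76% higher). CD3D was at 1.83 ± 0.30 (adjusted p = 0.00091), CD247 at 1.45 ± 0.22 (adjusted p = 0.00012), CD3G at 1.25 ± 0.22 (adjusted p = 0.0004) and CD3E at 0.94 ± 0.22 (adjusted p = 0.0053, limma). In each of them every CD8 library (CD3E from 167 to 235 CPM) was above every CD4 library (87.0 to 121). How many of all genes were apart in this way was not counted, so nothing is read from that. Pathway genes moved with them, 8 of 17 higher and 1 lower, the last being the coreceptor CD4 itself (-1.68 ± 0.20), while CD8A was higher by 2.67 ± 0.27. The 15 T cell markers summed to 3205 to 4442 CPM in CD8 and 2335 to 2553 in CD4 libraries, and plasmacytoid dendritic cell markers to 564 to 1157 and 3436 to 4495 CPM, and their part in the result was not tested. Treg libraries were lower than CD4 libraries in 3 of 4 chains (25.3% called, 10.5% lower): CD3G by -1.75 ± 0.22 (adjusted p = 2.05e-06), CD247 by -1.05 ± 0.22 (adjusted p = 0.0012) and CD3E by -0.98 ± 0.22 (adjusted p = 0.0017, limma). CD3D was at -0.66 ± 0.30 (adjusted p = 0.13, limma), and passed without CD4 library 1, which held 187 CPM where the other 3 held 379 to 477, or without Treg library 3 (358 CPM against 147 to 212). Of 17 pathway genes 10 were lower and 2 higher in Treg libraries. In libraries low in lung transcripts, which leave 1 CD4 and 1 Treg library with their spread taken from the other groups, 2 chains passed for CD8 cells (CD3D and CD247) and 1 for Treg libraries (CD3G). At the other stages 0 of 4 chains passed between populations in limma, where 0.0449% (early), 0% (peripheral) and 0.239% (core) of genes were called for CD8 and 1.95%, 0% and 0% for Treg against CD4 cells. At an unadjusted p under 0.05 there were 1, 1 and 2 chains for CD8 cells and 3, 1 and 2 for Treg libraries, and edgeR called 0. Without the share of all genes at that threshold, which is not given, nothing is read from these counts.

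Between granulocytes and CD4 cells of normal marrow no chain was tested, because CD3D and CD3E were chosen on that gap and CD3G and CD247 reached the minimum value only through the CD4 libraries. The fitted log2 difference, granulocytes minus CD4 cells, was -3.27 ± 0.22 for CD3G and -3.50 ± 0.22 for CD247. The added constant of 4 understates these differences, and edgeR on the recovered reads gave -6.26 and -6.79. CD3D held 494 to 600 CPM in granulocytes and 187 to 477 in CD4 cells, with no overlap, and CD3E 0 to 1.73 and 87.0 to 121.

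The proportions of the chains were compared among T cell populations. In normal marrow the log2 ratio of CD3D to CD3E was 2.58 ± 0.16 in CD8, 2.22 ± 0.24 in Treg and 1.73 ± 0.56 in CD4 libraries (n = 4 each). Of 6 comparisons of ratios, that of CD3D to CD3E between CD8 and CD4 cells had the smallest p the design allows (difference 0.85, exact two-sided permutation p = 0.0286, adjusted over the 6 tests 0.171), with 4 of 4 CD8 libraries above all CD4 libraries. CD3G to CD3E differed by -0.91 between Treg and CD4 libraries (exact permutation p = 0.0571, adjusted 0.171). None of the 6 passed after adjustment.

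Across the 40 T cell libraries, the gene most like CD3E was CD247 (r = 0.877), followed by LAT (0.856), PRKCH (0.852), LCK (0.849) and SKAP1 (0.848), among 6172 genes. CD3D was rank 19 for CD3E (0.770) and CD3G rank 35 (0.733). CD3D itself was most like LAT (0.895), the peptidase KLK8 (0.888) and CD247 (0.878), CD247 most like LAT (0.921), LCK (0.904) and the lymph node homing receptor CCR7 (0.886), and CD3G most like the ribosomal protein RPS13, the adaptor LIME1 (0.820) and RPS7 (0.819). These libraries share scaling and differ in T cell content, so the values describe likeness and nothing else.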

How the data were processed

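Every file holds 1 library of sorted mouse cells made by MARS-seq. The authors deposited scaled read counts, a coverage-like signal per gene: the submitters' processing notes name fastp 0.20.0, STAR 2.6.0c, DESeq2 1.30.1 and GRCm38 (mm10), with no role or order, and read counting, strand and handling of molecular identifiers are not given in the sources used here. Genes carry human identifiers, so a mouse gene with no human counterpart is not analysed here, and 15696 of 15729 symbols equal a mouse symbol in capitals. The rows with no symbol (5 of 15734) held at most 0.0124% of reads.

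In each deposited file the signal values are whole multiples of what 1 read is worth (100% of values within 0.01 of a whole read), so reads were recovered and CPM computed from them. Intervals cover counting error only, and at a count of 0 a limit of 3 reads applies. The main test was limma 3.58.1 (trend, robust) in R 4.3.3 on log2(deposited value + 4), over genes reaching a value of 10 in at least the size of the smallest group, Benjamini-Hochberg adjusted over all genes tested, threshold 0.05. Python 3.11.15 was used for ratios and exact permutation tests. In the T cell populations the share of all genes with groups apart in range was not counted. There a chain called apart is described, and nothing is read from it. The fits were tested on simulated data. Alternatives were pseudocounts of 1 and 16, no minimum, edgeR 4.0.16 (TMM and RLE), DESeq2 1.42.0 and limma-voom on recovered reads, replicate blocks, libraries low in lung transcripts (6 genes summing to under 100) and leaving out each library. Per the series' design each late-stage mouse gave both a core and a peripheral sample. File-name numbers were taken as the mouse, which no label says. Deviations of paired core and peripheral libraries from their group means correlated with r from 0.219 to 0.292 in CD4 and 0.111 in both CD8 pairs. The values were 0.074 to 0.241 in Treg and -0.337 to 0.510 in granulocyte libraries, so not all granulocyte pairs deviated together.

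Members, gene lists and tests were chosen with earlier results of these data known. Named genes were the members, the genes most like them, the 3 nearest listed genes on each side of Cd3d and Cd247, up to 4 pathway genes a comparison by p, and 4 other ITAM adaptors. A gene that this rule names is not reported here.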

Additional observations from a re-analysis of the deposited data

Results flagged for a closer look

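In groups of 4 libraries, 4 values of 36 groups with reads stood apart from the other 3 by more than Dixon's critical value, where chance gives about 1 in 20. In peripheral CD4 cells, library 2 held 789 CPM of CD3D where the others held 269 to 317. In normal CD8 cells, library 3 held 235 CPM of CD3E where the others held 167 to 174. The other 2 are single reads in peripheral granulocytes, 1.07 CPM of CD3E in library 1 and 1.03 CPM of CD3G in library 2, where the others held 0.

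The fitted change of CD3D from normal marrow to the core was lower in granulocytes than in CD4 cells, by -3.34 ± 0.71 on the log2 scale. CD3D was chosen with its granulocyte levels known, so this is a description with no test and no independent support. The difference was -2.12 in libraries low in lung transcripts, where 1 granulocyte and 1 CD4 core library remained.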

How the results depend on the processing

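The differences of CD3D in granulocytes from normal marrow, a description, kept their direction in all 9 alternatives and with any 1 library left out (early -1.80 to -1.60, peripheral -2.32 to -1.96, core -2.32 to -1.72 with a library left out). Core minus peripheral marrow in granulocytes ran from -0.17 to 0.43 with a library left out, turning negative without peripheral library 3 (-0.09) or core library 1 (-0.17). In libraries low in lung transcripts, with 1 core library, this difference was 0.83. With no minimum value the fitted difference of CD3G in granulocytes, core minus normal marrow, was 0.64 ± 0.12, on 16 core and 4 normal reads. Like the difference from the peripheral marrow given above, it is a description with no test, and nothing is read from it. CD3D, at -2.04 there, is a description and is not counted.

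Core against peripheral CD4 cells had 1 chain called in place of 2 with a pseudocount of 1, no minimum, edgeR (both scalings) or either replicate block, 0 in libraries low in lung transcripts, and 1 to 4 with a library left out. Core against normal CD4 cells had 0 in place of 1 with a pseudocount of 1, no minimum, edgeR, the block by title number or in libraries low in lung transcripts, 2 with a pseudocount of 16, DESeq2 or limma-voom, and 0 to 2 with a library left out. Early CD8 cells had 0 in place of 3 in libraries low in lung transcripts. Core against peripheral CD8 cells had 1 in place of 0 with edgeR, DESeq2 or limma-voom. Core against normal Treg libraries had 2 in place of 0 with edgeR, DESeq2, limma-voom or a pseudocount of 16, 1 with the block by title number, and 0 to 2 with a library left out. Core against peripheral Treg libraries had 2 with the block by file-name number or in libraries low in lung transcripts, 1 with the block by title number, and 0 to 3 with a library left out. In libraries low in lung transcripts, normal CD8 against CD4 cells had 2 in place of 4, normal Treg against CD4 libraries 1 in place of 3, and peripheral Treg against CD4 libraries 1 in place of 0 (0 to 1 with a library left out). Early Treg against CD4 libraries had 1 in place of 0 with limma-voom or the block by title number, and 0 to 1 with a library left out. The share of all genes called in each of these settings is not given, so the counts show only how the calls move. The subset low in lung transcripts has fewer libraries, and a group left with 1 is assumed to vary like the others. For the other settings the cause was not tested.

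As alternatives chosen after seeing the data, the interaction for CD3D between granulocytes and CD4 cells, a description, was fitted again. It was -2.12 in libraries low in lung transcripts and ran from -3.62 to -3.02 with a library left out. For CD3G between CD8 and CD4 cells at the early stage the interaction ran from -1.60 to -1.15 with a library left out and passed without early CD8 library 1. The log2 ratio of CD247 to CD3E, Treg minus CD4 libraries, was 0.0027 and changed sign with 1 read added (-0.0073) and with libraries left out (-0.14 to 0.13). Between the other stages, libraries with the same title number did not deviate together throughout (r from -0.516 to 0.527). Within a stage, libraries with the same file-name number had r from -0.521 to 0.652 between CD8 and CD4 cells. Between Treg and CD4 libraries r ran from -0.26 to 0.369. No label says whether these shared a mouse, and the main population fits and the ratio tests took them as independent. The replicate block changed no count of called chains other than those given. Depth limits CD3E, CD3G and CD247 in granulocytes, at 0 to 14 reads a library.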
